A study of Mus musculus with 8 samples.

Results

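The transcripts described here encode 9 nuclear genes of mitochondrial mRNA maintenance and turnover, which were picked by name from the 50599 gene records of each library. They are the RNA-binding partners Lrpprc and Slirp, the poly(A) polymerase Mtpap and the degradation enzymes Pnpt1, Supv3l1, Rexo2 and Pde12. Angel2, a relative of Pde12, and the RNA granule protein Grsf1 complete the set. All 9 were found and all 9 had enough counts to be tested. Total RNA from whole hearts of 12-week-old male C57BL/6N mice was sequenced in 8 libraries, each made from 1 mouse, after removal of cytoplasmic rRNA and with random primers. The 4 libraries that carry the label wildtype come from control mice whose Lrpprc alleles are flanked by loxP sites (Lrpprc loxP/loxP). The 4 libraries with the label Lrpprc knockout come from mice with the same alleles and Cre, in which Lrpprc is deleted in heart and skeletal muscle but not in other cells. Whole hearts also hold cells other than muscle cells, such as fibroblasts and endothelial cells. Which cells of the hearts kept Lrpprc was not tested.

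Mitochondrial DNA is transcribed as long polycistronic RNAs that are cut into rRNAs, tRNAs and mRNAs. LRPPRC and SLIRP form a complex that binds the mRNAs and keeps them stable and polyadenylated, and MTPAP adds the poly(A) tails. PNPT1 (a 3' to 5' exoribonuclease, PNPase) and the helicase SUPV3L1 (SUV3) form the degradosome that breaks down mitochondrial RNA, REXO2 hydrolyses the short oligonucleotides that remain, and PDE12 removes poly(A) tails. GRSF1 binds RNA in mitochondrial granules, and ANGEL2 belongs to the same family of phosphatases and deadenylases as PDE12. The heart depends on this system because it carries many mitochondria.

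The libraries held between 35218541 and 47743376 expected counts. Mitochondrial rRNA took 44.0% to 46.9% of the counts in the wildtype and 65.6% to 67.8% in the knockout. Mitochondrial mRNAs, summed with 11 nuclear copies that share reads with them, took 13.8% to 14.1% in the wildtype and 0.994% to 1.29% in the knockout. Counts of the 9 genes are therefore given after scaling by median-of-ratios size factors and by transcript length (normalised counts). All 8 cardiomyocyte markers were measured, with summed normalised counts of 1062890 to 1172900 in the wildtype and 559057 to 712308 in the knockout, and 6 of the 8 were lower and 1 was higher. Of the fibroblast markers 3 of 7 were higher, the collagen genes Col1a1, Col1a2 and Col3a1. The fibroblast markers Pdgfra, Dcn, Lum and Tcf21 did not pass the test. Col3a1 had 5056 to 5756 normalised counts in the wildtype and 3645 to 29509 in the knockout. Of the macrophage markers 5 of 6 were higher. The test was passed by 0 of 6 endothelial, 0 of 3 erythroid and 0 of 3 adipose markers. Lower were 1 of 4 mural and 2 of 4 atrial markers. Over all genes tested, 18.2% were called higher and 15.5% lower. The adipose marker Plin1 was at 0 in at least 1 knockout library. The fibroblast sum was 17256 to 17971 in the wildtype, 28232 to 53671 in knockout replicates 1, 2 and 4, and 16288 in knockout replicate 3, which stands apart from the other knockout libraries. The macrophage sum was 1606 to 2044 in the wildtype, 2381 to 4286 in knockout replicates 1, 2 and 4, and 1787, inside the wildtype range, in knockout replicate 3. In RNA from a whole tissue, fewer cells of a type and less RNA per cell cannot be told apart. The part of these markers in the results was not tested. The erythroid sum was 13867 to 17969 in the wildtype, 10057 to 30710 in knockout replicates 1, 2 and 4, and 37839 in knockout replicate 3. The atrial sum was 9980 to 12038 in the wildtype, 3233 to 6012 in those 3 knockout libraries and 1268 in knockout replicate 3. Over all markers 9 were called higher and 9 lower, and with 1 library left out 6 (without knockout replicate 2) to 13 (without knockout replicate 1 or 3) were called higher and 9 to 12 lower. The 3 and 1 calls among the 9 genes described next were kept without knockout replicate 3, with log2 fold changes of -2.69 for Lrpprc, 0.82 for Rexo2, 0.55 for Pde12 and 0.46 for Mtpap.

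Of the 9 genes, Lrpprc was lower in the knockout hearts and Rexo2, Pde12 and Mtpap were higher (DESeq2, Benjamini-Hochberg adjusted p below 0.05). Slirp, Pnpt1, Supv3l1, Grsf1 and Angel2 did not pass the test. Across all 19959 genes tested, 33.7% passed, 18.2% as higher and 15.5% as lower. Leaving aside the targeted gene, 3 of the other 8 passed, all 3 of them higher, and their median log2 fold change was 0.17 beside 0.01 over all genes tested. The 3 of 8, or 37.5%, is near the share over all genes. The same 4 genes passed in edgeR. Between groups, the normalised counts of Lrpprc, Rexo2, Pde12 and Mtpap did not overlap, and such separation was seen in 33% of all genes tested.

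**Figure D1:**
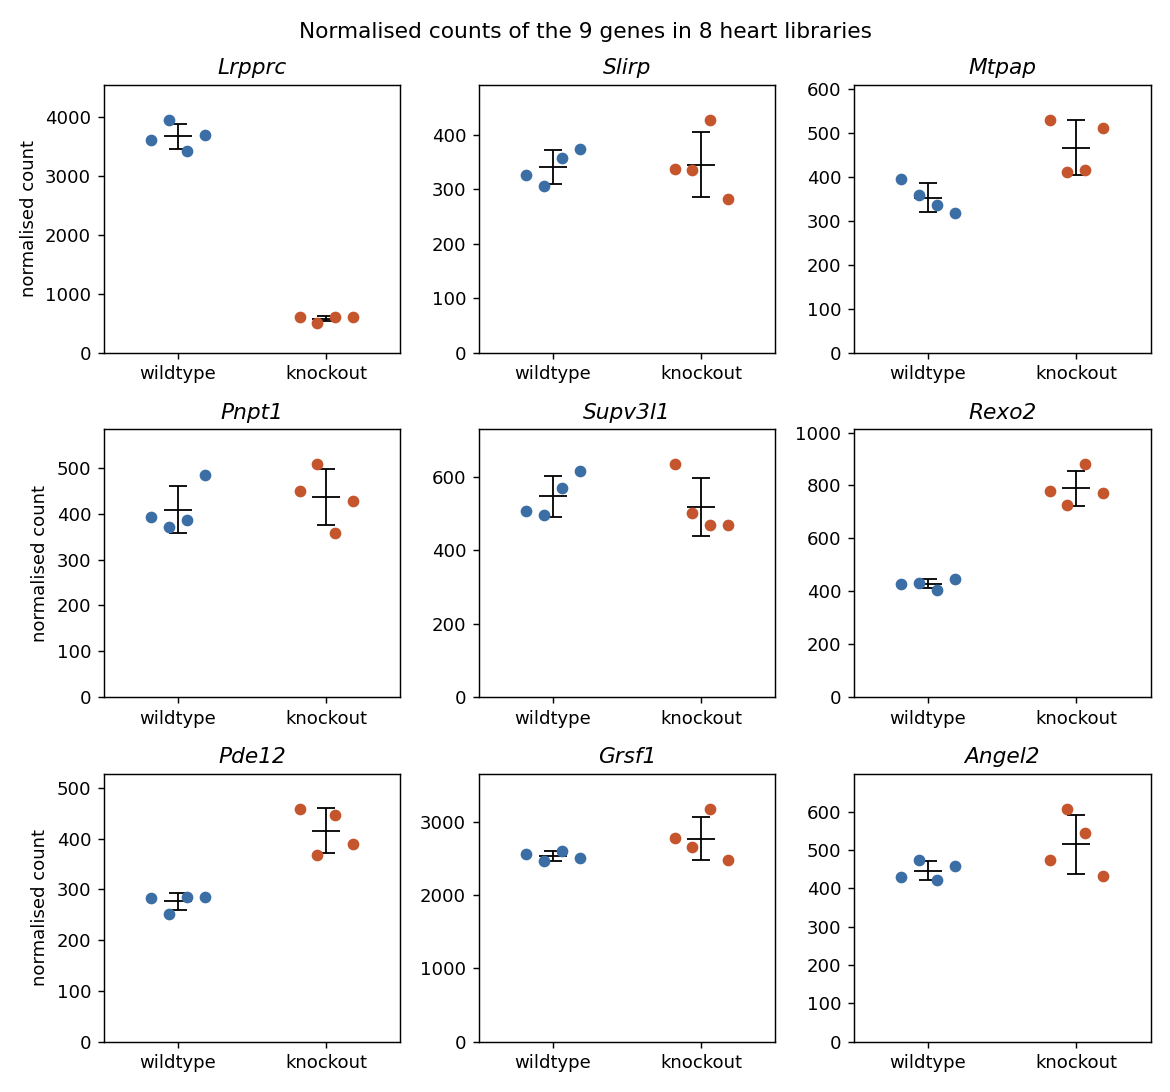
Normalised counts (vertical axes, from 0) of the 9 genes in each wildtype and knockout library, with points for libraries and bars for the mean and SD of 4. Lrpprc falls from 3665 to 577, while Rexo2, Pde12 and Mtpap lie higher in all 4 knockout libraries than in any wildtype library.

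The first comparison checked the targeted gene. Lrpprc (ENSMUSG00000024120.12), which codes for the leucine-rich pentatricopeptide repeat protein of the complex, is on the minus strand at chr17:84705247-84790789 (GRCm38). In the order of the replicates, 3607, 3946, 3424 and 3682 normalised counts were found in the wildtype and 597, 504, 605 and 601 in the knockout. Every knockout library lay far below every wildtype library. The log2 fold change was -2.67 (SE 0.10, 95% interval -2.86 to -2.47), or 6.35-fold lower, with an adjusted p of 3.77e-153 in DESeq2 and 4.70e-08 in edgeR. The counts that remained in the knockout hearts were 15.7% of the wildtype mean. Whether they came from the cells without Cre was not tested.

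The length of the Lrpprc transcripts to which reads were assigned was compared as well. The abundance-weighted mean transcript length, an estimate by RSEM over the 7 annotated Lrpprc transcripts of 513 to 4393 bases, was 4135, 3795, 4127 and 3920 bases in the wildtype libraries. The knockout libraries had 3459, 3423, 3055 and 2920 bases. The groups did not overlap, as was the case for 8.62% of the 11196 genes whose length could be tested. The log2 difference of -0.32 (SE 0.06) did not pass the test across all genes (limma, adjusted p = 0.109), which 0.563% of genes (63) passed. With 1 library left out that number of genes lay between 1, without knockout replicate 4, and 51, and it was 2 without wildtype replicate 2 and 14 without wildtype replicate 4 or knockout replicate 3. An exact permutation test of Lrpprc on its own gave a two-sided p of 0.0286, the smallest that 4 against 4 libraries allow. The transcript of 4393 bases is the one that codes for the full protein, and the others are annotated as processed transcripts, transcripts with a retained intron or a target of nonsense-mediated decay. Without the correction for length the log2 fold change of Lrpprc was -3.00 in place of -2.67.

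**Figure D2:**
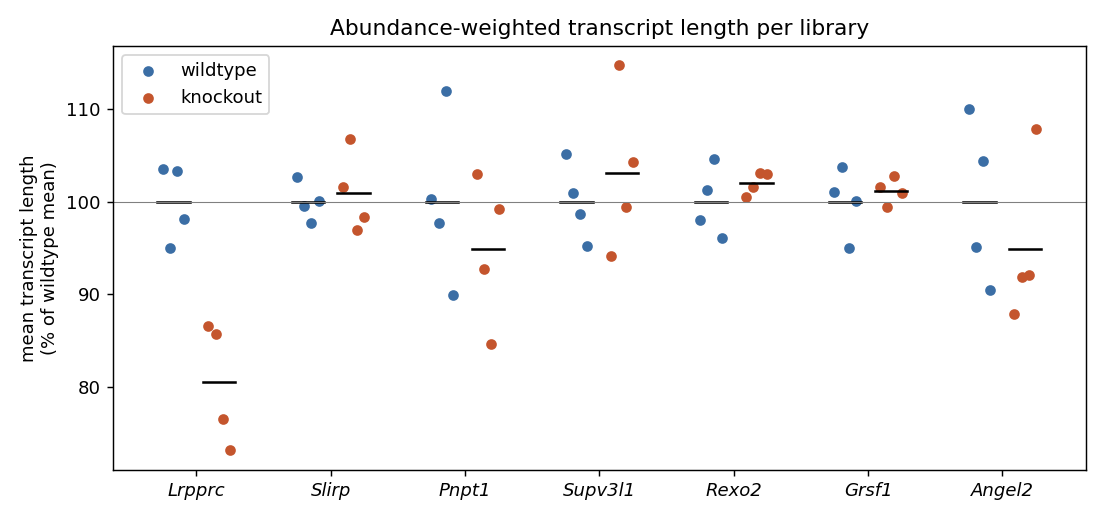
Abundance-weighted mean transcript length in each library, as a percentage of the wildtype mean (vertical axis, not from 0), for the 7 genes with more than 1 transcript in the files; points are libraries and black lines are group means. The 4 knockout libraries of Lrpprc lie below the 4 wildtype libraries, while both groups overlap in the other 6 genes.

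Lrpprc and Slirp transcripts parted. Slirp (ENSMUSG00000021040.15, chr12:87443896-87452206, plus strand) codes for the small RNA-binding partner of LRPPRC. Slirp had 325, 306, 357 and 374 normalised counts in the wildtype and 336, 334, 427 and 283 in the knockout. The knockout libraries spanned the whole wildtype range, with replicate 3 the highest and replicate 4 the lowest of all 8. The log2 fold change was 0.02 (SE 0.16, 95% interval -0.29 to 0.32, adjusted p = 0.952 in DESeq2), and without knockout replicate 3 it was -0.10. The interval allows a change of up to 1.25-fold in Slirp, and 0.82-fold at its lower end. The reads of Slirp share 2914 exonic bases with Snw1 and 122 with Alkbh1 on the opposite strand, and reads were counted by strand.

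The ratio of Lrpprc to Slirp was also taken within each library, which needs no scaling between libraries. In TPM it was 1.18, 1.37, 1.02 and 1.05 in the wildtype libraries, against 0.189, 0.160, 0.151 and 0.225 in the knockout libraries. The log2 ratio changed from 0.20 ± 0.20 (SD, n = 4) to -2.48 ± 0.26 (SD, n = 4), a difference of -2.68 (SE 0.16, exact permutation test, two-sided p = 0.0286). In the wildtype, transcripts of the 2 partners were about equally abundant by this measure.

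**Figure D3:**
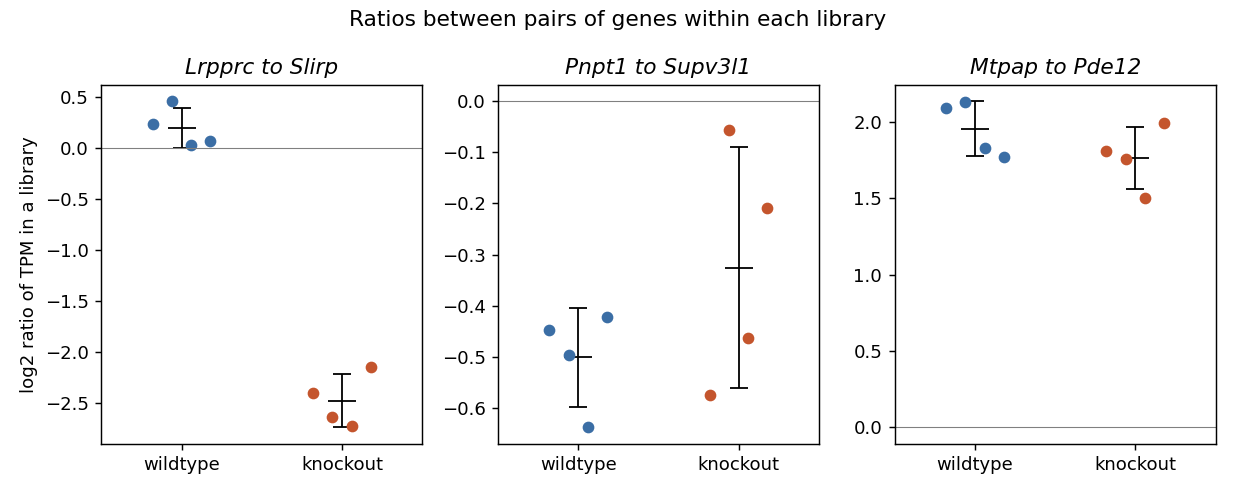
Log2 ratio of TPM between 2 genes in each library (vertical axes), for Lrpprc to Slirp, Pnpt1 to Supv3l1 and Mtpap to Pde12, with points for libraries and bars for the mean and SD of 4. Lrpprc to Slirp fell by 2.68 on the log2 scale, while the groups overlap in the other pairs.

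Rexo2 had the largest rise among the 9 genes. Rexo2 (ENSMUSG00000032026.7, chr9:48468512-48480623, minus strand) codes for the oligoribonuclease. Its normalised counts were 429, 430, 406 and 448 in the wildtype and 778, 726, 880 and 771 in the knockout. The groups were far apart, with a gap wider than the spread of either. The log2 fold change was 0.88 (SE 0.10, 95% interval 0.68 to 1.09), or 1.84-fold higher, with an adjusted p of 1.07e-15 in DESeq2 and 3.85e-05 in edgeR. It lay between 0.58 and 1.30 and kept its direction and its call in every alternative tried.

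Pde12, the 2',5'-phosphodiesterase that removes poly(A) tails (ENSMUSG00000043702.9, chr14:26659958-26669883, minus strand), rose by less. Its normalised counts were 283, 252, 286 and 284 in the wildtype and 458, 368, 446 and 389 in the knockout, and the groups did not overlap. The log2 fold change was 0.59 (SE 0.13, 95% interval 0.34 to 0.84), or 1.5-fold higher, with an adjusted p of 2.30e-05 in DESeq2 and 0.00213 in edgeR. It also kept its direction and its call in every alternative. Pde12 shares 527 exonic bases with Arf4 on the opposite strand and 62 with the microRNA gene Mir7672 on the same strand.

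Mtpap, the polymerase that adds the tails (ENSMUSG00000024234.6), had normalised counts of 396, 360, 336 and 319 in the wildtype and 530, 411, 415 and 512 in the knockout. The groups did not overlap, although the lowest knockout value of 411 lay near the highest wildtype value of 396. The log2 fold change was 0.41 (SE 0.14, 95% interval 0.13 to 0.68), with an adjusted p of 0.0133 in DESeq2 and 0.0306 in edgeR. The call was lost without knockout replicate 1 (adjusted p = 0.0547), knockout replicate 4 (0.0644), wildtype replicate 3 (0.0591) or wildtype replicate 4 (0.0738), and with total-count scaling, which lowers all genes (log2 fold change 0.11, adjusted p = 0.604). Mtpap shares 1147 exonic bases with the antisense gene Gm26865 and 224 with AC138768.3, which lies on the same strand, so that reads from the shared bases cannot be told apart by strand. AC138768.3 was not analysed here.

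Mtpap and Pde12 act in opposite directions on the poly(A) tail, so their ratio was taken within libraries. In TPM it was 4.26, 4.38, 3.56 and 3.42 in the wildtype and 3.51, 3.39, 2.83 and 3.98 in the knockout. The difference of the log2 ratio was -0.19 (SE 0.14, exact permutation test, two-sided p = 0.171), and it was -0.10 without knockout replicate 3.

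The starts of Rexo2 and Pde12 are shown because these genes rose together, as the 250 bases before the start of the gene in RefSeq on GRCm38.p6, 5' to 3' on the strand of the gene. Entries were matched for 8 of the 9 genes, and Mtpap had none. Both strands were searched for part of the motif of the nuclear respiratory factor NRF1 (GCGCANGC), the ETS motif of GABP (CCGGAAGT) and the amino acid response element (TGATGNAA), which are found in 8.3%, 2.88% and 3.45% of all 32851 promoter entries. Capitals mark a match. Pde12 holds 1 GABP match, on the opposite strand to the gene, 66 to 73 bases before the start, and Rexo2 holds none of the motifs. Among the other genes, 1 of the windows of each of Supv3l1, Grsf1 and Angel2 holds an NRF1 match, while Lrpprc, Slirp and Pnpt1 hold none. The full palindromic NRF1 motif, which is in 3.74% of entries, was in no window of the 8 genes. The Rexo2 window lies at chr9:48480612-48480861 and the Pde12 window at chr14:26669847-26670096, both on the minus strand.
Rexo2: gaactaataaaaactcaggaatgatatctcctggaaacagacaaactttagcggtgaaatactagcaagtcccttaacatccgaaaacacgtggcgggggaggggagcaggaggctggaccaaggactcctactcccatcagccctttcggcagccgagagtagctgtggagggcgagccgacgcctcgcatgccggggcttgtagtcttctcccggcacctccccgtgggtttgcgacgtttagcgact
Pde12: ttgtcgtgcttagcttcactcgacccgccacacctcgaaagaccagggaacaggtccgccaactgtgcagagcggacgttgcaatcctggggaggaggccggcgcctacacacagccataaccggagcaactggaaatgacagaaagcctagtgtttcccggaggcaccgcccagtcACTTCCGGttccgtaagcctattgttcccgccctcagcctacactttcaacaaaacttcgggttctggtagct

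Neither gene of the degradosome passed the test. Pnpt1 (ENSMUSG00000020464.15, chr11:29130744-29161828, plus strand) codes for the ribonuclease. Pnpt1 stood at 393, 372, 386 and 485 normalised counts in the wildtype and 449, 508, 359 and 428 in the knockout, and the groups overlapped. The log2 fold change was 0.09 (SE 0.15, 95% interval -0.20 to 0.38, adjusted p = 0.682 in DESeq2). It was 0.016 without knockout replicate 2, 0.051 without wildtype replicate 2, 0.17 without knockout replicate 3 and 0.19 without wildtype replicate 4, and 0.028 without the correction for length. Supv3l1 (ENSMUSG00000020079.15, chr10:62429209-62449738, minus strand) codes for the helicase and shares 250 exonic bases with 4930507D05Rik on the opposite strand. Its normalised counts were 507, 497, 569 and 615 in the wildtype and 634, 500.5, 469 and 469 in the knockout. Knockout replicate 1 was the highest of all 8 and replicates 3 and 4 were the lowest, and the log2 fold change was -0.08 (SE 0.14, 95% interval -0.36 to 0.20, adjusted p = 0.716 in DESeq2). With 1 library left out it ranged from -0.19, without knockout replicate 1, to -0.019, without wildtype replicate 4, and it was -0.038 without knockout replicate 3. Their ratio in TPM was 0.733, 0.709, 0.643 and 0.746 in the wildtype and 0.672, 0.961, 0.725 and 0.865 in the knockout. The groups overlapped, with a log2 difference of 0.18 (SE 0.13, exact permutation test, two-sided p = 0.257). This difference was 0.086 without knockout replicate 2 and 0.048 from counts not divided by length.

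Grsf1 (ENSMUSG00000044221.14, chr5:88659448-88676171, minus strand) codes for the granule protein. Wildtype and knockout hearts had normalised counts of 2564, 2466, 2611 and 2504, against 2779, 2655, 3180 and 2486. Knockout replicates 1, 2 and 3 were above the wildtype range and replicate 4 was inside it, and the log2 fold change was 0.13 (SE 0.10, 95% interval -0.06 to 0.32, adjusted p = 0.336 in DESeq2). Without knockout replicate 3, the highest library, it was 0.057. Angel2 (ENSMUSG00000026634.16, chr1:190925112-190946962, plus strand) had normalised counts of 429, 474, 421 and 459 in the wildtype and 475, 607, 545 and 433 in the knockout. Its log2 fold change was 0.21 (SE 0.14, 95% interval -0.06 to 0.47, adjusted p = 0.248 in DESeq2), and the groups overlapped. It was 0.12 without knockout replicate 2 and 0.13 without the correction for length.

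Scaling by total counts shifts all genes together. It moved the median log2 fold change of all genes with at least 10 counts on average by -0.296, and leaving mitochondrial rRNA out of the totals moved it by 0.425. Relative to that median the 9 genes kept their sign and nearly their size. Taking off the median removes a shift that all genes share, so this outcome was largely fixed beforehand and is no further check. Under median-of-ratios scaling, total counts and totals without mitochondrial rRNA, in this order, Slirp lay at -0.0025, -0.012 and -0.011 from the median, Pnpt1 at 0.075, 0.084 and 0.081, Supv3l1 at -0.099, -0.099 and -0.098, Grsf1 at 0.11, 0.10 and 0.11, and Angel2 at 0.19 each time. Mtpap lay at 0.39, Rexo2 at 0.86 and Pde12 at 0.57 in each. The counts of calls followed the shift. With total counts 3 of the 9 genes were called lower (Lrpprc, Grsf1 and Supv3l1), where 29.6% of all genes were, and 2 were called higher (Rexo2 and Pde12), where 9.64% were. With totals that left out mitochondrial rRNA all 8 genes other than Lrpprc were called higher, where 38.9% of all genes were, and Lrpprc was called lower, where 5.43% were.

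**Figure D4:**
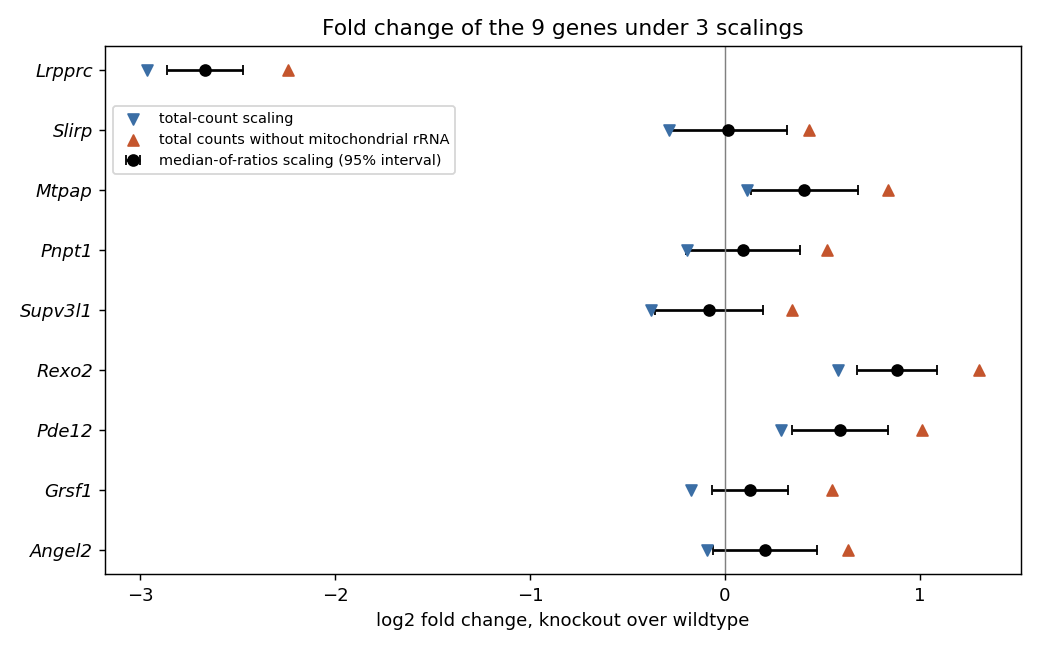
Log2 fold change of the 9 genes (horizontal axis) under median-of-ratios scaling, with 95% intervals as bars, and under 2 kinds of total-count scaling. The 9 genes move together, by about the shift of the median of all genes (-0.296 and 0.425), and Lrpprc stays below 0 and Rexo2, Pde12 and Mtpap above it under each scaling.

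Levels were compared between genes as normalised counts per kilobase of effective transcript length. In the wildtype Grsf1 was highest with 1284 ± 32.4 (SD, n = 4), followed by Lrpprc with 1066 ± 62.9 and Slirp with 940 ± 85.1, whose values overlapped. Rexo2 with 481 ± 19.5 and Supv3l1 with 260.1 ± 26.3 came next and stood apart from their neighbours. Pnpt1 with 184 ± 23.1 and Angel2 with 182 ± 10.2 overlapped, Mtpap followed with 142 ± 13.5, and Pde12 was lowest with 36.5 ± 2.15. Grsf1, Lrpprc and Slirp were above 94.4%, 93.5% and 92.6% of the 15754 genes that averaged 10 or more normalised counts, and Pde12 was above 28.9%.

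In the knockout the level of Lrpprc fell to 168 ± 14.1 per kilobase, second lowest of the 9, where it overlapped with Mtpap at 188 ± 25.2. Rexo2 reached 887 ± 73.0 and overlapped with Slirp at 952.5 ± 166. Grsf1 was highest in both groups and Pde12, at 55.0 ± 5.76 in the knockout, was lowest in both.

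**Figure D5:**
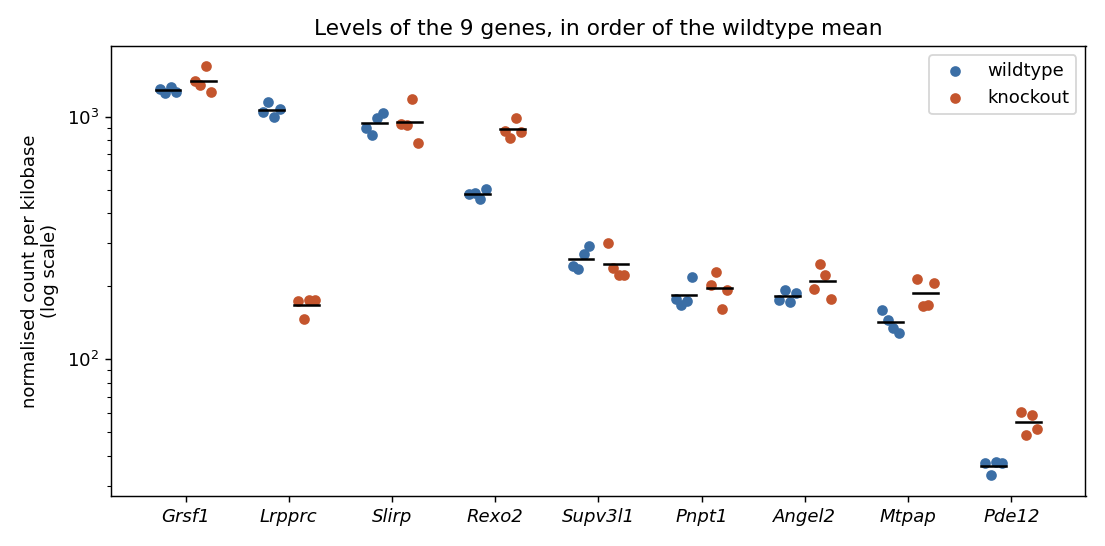
Normalised counts per kilobase (vertical axis, log scale) of the 9 genes in each library, ordered by the wildtype mean; points are libraries and black lines are group means. Lrpprc drops from the second to the eighth place, and Rexo2 rises to the range of Slirp.

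The genes whose profiles over the 8 libraries were most like those of the genes that changed were found among 10446 other genes, by the root mean square difference of log2(normalised count + 1) relative to the wildtype mean. For Lrpprc they were Gm43672 (difference 0.147), the mitochondrial mRNA mt-Cytb (0.194) and A530016L24Rik (0.20). For Rexo2 they were the mitochondrial 12S rRNA mt-Rnr1 (0.0554), Uba3 (0.0559) and Utp14a (0.0651). For Pde12 they were Rps15a (0.0612), Ftsj3 (0.0633) and Kansl2 (0.0720), and for Mtpap they were Slmap (0.0829), Rras2 (0.0883) and Polr3b (0.0949). Because profiles are set against the wildtype mean, the difference tends to be small for genes of like fold change. The log2 fold change was 0.92 for mt-Rnr1 and 0.83 for Uba3, beside 0.88 for Rexo2. Whether any of these genes are linked was not tested.

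Genes of related function were counted from 6 lists with 63 genes, of which 62 were tested. Of these 18 were higher and 8 were lower, or 41.9% beside 33.7% over all genes. In edgeR 16 were higher and 8 lower, where 6274 of 15792 genes tested passed. Among other factors of mitochondrial RNA processing and granules, 4 of 13 were higher and 3 lower (3 and 3 in edgeR). Trnt1, which adds CCA to tRNA ends, had a log2 fold change of 1.29 (adjusted p = 9.93e-12 in DESeq2) and Elac2, the 3' tRNA endonuclease, of 0.85 (adjusted p = 3.16e-09 in DESeq2). Of the other mitochondrial nucleases 1 of 5 was higher and 2 were lower. Mgme1, the mitochondrial genome maintenance exonuclease, fell by 1.01 on the log2 scale (adjusted p = 2.05e-09 in DESeq2). Lactb2, an endoribonuclease, was at 0.70 (adjusted p = 0.00836 in DESeq2), but at 0.10 (adjusted p = 0.511) without the correction for transcript length.

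Of the 6 other pentatricopeptide repeat proteins, Mrps27, a ribosomal protein, was higher (log2 fold change 0.35, adjusted p = 0.00288 in DESeq2), and Polrmt, the mitochondrial RNA polymerase, was lower (-0.59, adjusted p = 0.00745), though at -0.35 without the correction for length. The call of Polrmt was lost without wildtype replicate 4 (adjusted p = 0.0544) and with totals that left out mitochondrial rRNA (adjusted p = 0.55). Among deadenylases and relatives of Pde12 and Angel2 in the cytosol and nucleus, 2 of 9 were higher and 0 lower. The 2 were the poly(A)-specific ribonuclease Parn (0.71, adjusted p = 1.21e-06 in DESeq2) and the deadenylase Cnot6 (0.38, adjusted p = 0.0184). The call of Cnot6 was lost without wildtype replicate 4 (adjusted p = 0.0901), knockout replicate 2 (0.0809) or knockout replicate 4 (0.0720). Among 11 other poly(A) polymerases and terminal nucleotidyltransferases, 3 were higher and 1 lower (2 and 1 in edgeR). Tent5b was at 1.84 (adjusted p = 0.00403 in DESeq2) with means of 9.49 and 34.2 normalised counts, and Tent5a was at 0.84 (adjusted p = 4.26e-06). Of the nuclear and cytosolic exosome and 5' decay genes, 7 of 18 were higher and 1 lower, beside 18.2% and 15.5% over all genes. Their median log2 fold change was 0.33, beside 0.01 over all genes tested. The other medians were 0.23 for poly(A) polymerases and nucleotidyltransferases, 0.07 for pentatricopeptide repeat proteins and 0.05 for processing and granule factors. They were -0.13 for deadenylases and -0.44 for the other mitochondrial nucleases. The exosome subunits Exosc1 and Exosc2 rose by 0.94 (adjusted p = 4.72e-05 in DESeq2) and 0.70 (adjusted p = 0.000843). With total counts, which lower all genes, the calls of Mrps27, Lactb2, Cnot6 and Exosc2 were lost (adjusted p of 0.741, 0.129, 0.701 and 0.0593).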

How the data were processed

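Per the labels, 4 wildtype and 4 knockout heart samples were grouped by title. The deposited expected counts came from RSEM 1.2.31 (bowtie2, paired ends, reverse strand), run by the authors on GENCODE M13 transcripts with added mitochondrial sequences that end in 50 adenines. The deposited TPM values and the other deposited values, transcript lengths in bases, are from RSEM as well. The authors' table of fold changes and p values was not used, and 8 columns of a normalised table, whose names match no label, were not used.

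Expected counts were rounded. DESeq2 1.42.0 (R 4.3.3) was fitted to all genes of the 8 libraries with genotype as the only term and effective lengths as an offset, with Benjamini-Hochberg adjustment at 0.05. edgeR 4.0.16 was an alternative. Transcript length was tested with limma 3.58.1 on genes with a mean of at least 10. Ratios were tested by exact permutation over 70 assignments. Intervals of fold changes are normal 95% intervals. Symbols and coordinates came from GENCODE M21, promoters from RefSeq. Copies were searched with blastn 2.17.0. On simulated data DESeq2 called more unchanged genes than its nominal rate and edgeR came closer to it. The edgeR adjusted p is therefore given beside the calls of the 9 genes. DESeq2 calls near the threshold are less certain than their adjusted p. The simulated counts used dispersions estimated by edgeR, which may favour edgeR in this comparison.

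The genes named are the 9 genes, the 2 largest changes past the threshold in each list, and the 3 nearest profiles of each gene that changed. The members, lists and motifs were chosen with earlier results of these data known, and the short NRF1 motif was chosen after the palindromic form had been searched. Replicates differed beyond counting noise, with a chi-square per degree of freedom of at least 4.40. Alternatives were other scalings, no length offset, a filter of 10 counts in 4 libraries, a replicate block and leaving out each library.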

Additional observations from a re-analysis of the deposited data

Results flagged for a closer look

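Among 38 sets of 4 values tested for a single distant library, 2 were marked, and about 1.9 would be by chance. Lrpprc in knockout replicate 2 was at 504 normalised counts, beside 597 to 605 in the other knockout libraries. Pde12 in wildtype replicate 2 was at 252, beside 283 to 286 in the other wildtype libraries.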

How the results depend on the processing

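The calls of Lrpprc, Rexo2 and Pde12 were kept in all 15 alternatives, with log2 fold changes of -3.00 to -2.24, 0.58 to 1.30 and 0.29 to 1.01. Both total-count scalings shift all genes together. Members higher numbered 3, and 8 with totals without mitochondrial rRNA, where genes higher went from 3628 to 7950. They numbered 2, without Mtpap, with total counts and when wildtype replicate 3 or 4 or knockout replicate 1 or 4 was left out. Those lower numbered 1, and 3 with total counts, where genes lower went from 3100 to 5912. In the other lists, 18 higher became 8 and 44, and 8 lower became 22 and 2, under total counts and under totals without mitochondrial rRNA, and leaving out 1 library gave 5 to 10 lower, with 5 lacking wildtype replicate 4. Cell type markers higher numbered 9, and 5 and 19 under the same scalings. Under total counts the sign turned for Slirp (-0.29), Pnpt1 (-0.19), Grsf1 (-0.17) and Angel2 (-0.091), and without mitochondrial rRNA for Supv3l1 (0.35). Relative to the median of all genes none of these 5 changed sign, which follows largely from taking off the shared shift. Slirp was at -0.0056 in edgeR and ranged from -0.10 to 0.10 with 1 library left out, below 0 without wildtype replicate 1, wildtype replicate 2 or knockout replicate 3. With 1 library left out, the log2 difference in length was -0.015 to 0.032 for Slirp and -0.011 to 0.085 for Supv3l1, below 0 without knockout replicate 2, and -0.0064 to 0.036 for Grsf1, below 0 without wildtype replicate 3. In length 1 member passed by the exact permutation test, unadjusted, and 0 by the test adjusted over all genes, which 63 genes passed, and 1 gene with a replicate block.

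The ratio of Lrpprc to Slirp was -2.79 to -2.59 with 1 library left out, where the exact permutation test of 3 against 4 cannot go below p = 0.0571. Deviations of libraries with the same number correlated at -0.05 to 0.09, and those of libraries with different numbers at -0.07 to 0.11. Whether replicate numbers pair the samples cannot be told from such weak correlations. With a replicate block the ratio was -2.68 (exact p = 0.125, the smallest possible), members higher numbered 3 and lower 1, genes of the other lists 13 and 6, and markers 7 and 10, and of the named genes Cnot6 lost its call (adjusted p = 0.0765). The cause of these shifts was not tested, apart from the scalings, which change the divisor itself.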
